A study of Homo sapiens with 12 samples.

Results

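The response to pemetrexed of folate-replete EA.hy926 cells was measured as the difference between 3 arrays of treated and 3 arrays of untreated Hi cells, which are 6 of the 12 arrays of the series. The 6 arrays were chosen by their labels, and the comparison covered all 18417 genes that could be named from a probe set with 1 gene symbol. EA.hy926 is a hybrid human line, obtained by fusion of endothelium from the umbilical vein with A549 cells, which derive from a lung carcinoma. Hi cells were kept in Medium 199 with added folic acid, at 9 µM, and were exposed at confluence to 0.5 µM pemetrexed for 48 h (Hi pemetrexed) or left untreated (Hi control). The other 6 arrays came from Lo cells, grown in parallel after adaptation to Medium 199 without that addition, at 23 nM folic acid, with the same pemetrexed dose and time (Lo pemetrexed) or none (Lo control). All 4 groups had 10% fetal calf serum, a change of medium 24 h before treatment and 3 biological replicates of this 1 line. The Lo culture was adapted separately, so any difference between Hi and Lo cells holds whatever else came to differ between the cultures.

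Pemetrexed is an antifolate that enters cells through the reduced folate carrier and other folate transporters and is retained there once folylpolyglutamate synthase has added a glutamate chain. Its polyglutamates inhibit thymidylate synthase and the folate-dependent enzymes of purine synthesis, and cells short of thymidylate or purines stall in S phase and can activate p53. Folates compete with the drug for uptake, for polyglutamation and for its target enzymes, which is why a medium rich in folic acid is known to blunt antifolates in culture. Endothelial cells line blood vessels, control clotting and, when activated, recruit leukocytes through adhesion molecules and chemokines.

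Values are log2 expression, and a difference of 1.00 is a 2-fold change. A gene was called at a limma p adjusted by Benjamini-Hochberg under 0.05, over all 18417 genes. A gene was called bounded when the whole 95% confidence interval of its difference lay within 1.5-fold of no change in either direction. The number of arrays limits this precision, and no background signal per probe set was used here, so no detection limit can be given and a gene that is not expressed counts as bounded too. RNA came from whole cultures, in which fewer cells of a type and less RNA per cell cannot be told apart.

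A pair of arrays did not lie with the group of their label. The position of each array was read over the 502 genes that were called and differed at least 2-fold between the treated groups, 228 higher and 274 lower in Hi cells, with the mean of Lo pemetrexed at 0% and that of Hi pemetrexed at 100%. Hi control replicates 1 and 2 had median positions of 101% and 95.3%. The array labelled Hi control replicate 3 had a median position of 48.1%, beside 47.9% and 48.3% for Lo control replicates 1 and 2. It was nearer to the other Hi controls than to these Lo controls in 46 of the 502 genes. The array labelled Lo control replicate 3 had a median position of 99.7%, and was nearer to the Hi controls in 446 genes. The labels were kept. Values are for all 12 arrays unless a fit of the 10 arrays without both is named, and that fit is given beside the main counts and the genes in which the array labelled Hi control replicate 3 stood apart. Differences in Hi cells are the same whether the Lo array is left out or not, since it enters only the estimate of the spread.

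**Figure D1:**
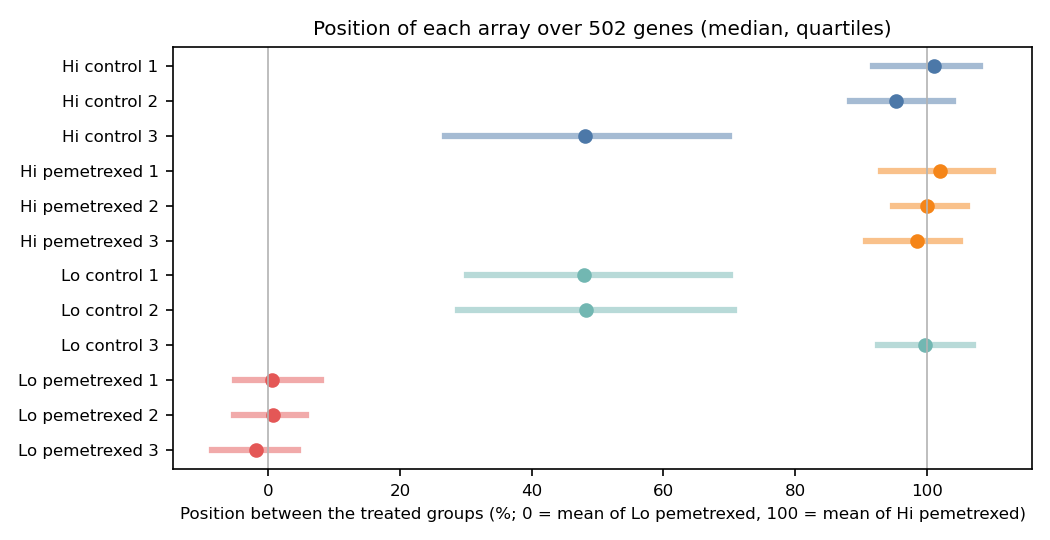
Median position (points) and quartiles (bars) of each of the 12 arrays, in percent of the distance from the mean of Lo pemetrexed (0) to that of Hi pemetrexed (100), over 502 genes. These were chosen on the difference between the treated groups, whose own positions are therefore fixed by the choice. The spread used in that choice came from all 12 arrays. The array labelled Hi control replicate 3 lies at 48.1%, with Lo controls 1 and 2, and the array labelled Lo control replicate 3 lies at 99.7%, with the Hi arrays.

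No gene of the folate-replete cells was called after 48 h of pemetrexed. Of 18417 genes, 0 were called by limma (0% of genes tested), and the smallest adjusted p was 0.9996. At an unadjusted p under 0.05 there were 266 genes (1.44%), 127 higher and 139 lower in treated cells. The call stayed at 0 without the array labelled Hi control replicate 3 (259 genes at an unadjusted p under 0.05) and in the 10-array fit (335 genes, 1.82%). In the 10 arrays, same-numbered samples tended to deviate together from their group means. A fit that blocked replicate numbers in these arrays called 0 genes, with 1034 at an unadjusted p under 0.05. The treated and control arrays did not overlap in 1002 genes (5.44%), of which 456 (2.48%) were higher and 546 (2.96%) lower in treated cells.

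Most genes were held to small changes. With all arrays, the 95% interval lay within 1.2-fold for 8727 genes (47.4%), within 1.5-fold for 17554 (95.3%) and within 2-fold for 18254 (99.1%). The interval extended a median of 0.202 log2, or 1.15-fold, to either side of the estimate. In the 10-array fit the numbers were 8997 (48.9%), 18140 (98.5%) and 18402 (99.9%), with the same median width. Without the array labelled Hi control replicate 3 alone, 17907 genes (97.2%) were bounded. A pair of one-sided moderated tests against the 1.5-fold limits, adjusted over all genes, placed 17839 genes (96.9%) within them with all arrays and 18263 (99.2%) with 10.

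The genes that were not bounded within 2-fold numbered 163 with all arrays and 15 with 10 arrays. Differences ran from -1.62 to 0.95 with all arrays, with 43 genes at 1.5-fold or more and 4 at 2-fold or more. With 10 arrays they ran from -0.52 to 0.69, with 4 genes at 1.5-fold or more and 0 at 2-fold. By mean level, the share bounded with all arrays was 98.0% for genes under 6 log2, 96.1% from 6 to 8, 93.5% from 8 to 10 and 94.3% above 10. With 10 arrays these shares were 98.5%, 98.2%, 98.4% and 99.0%.

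**Figure D2:**
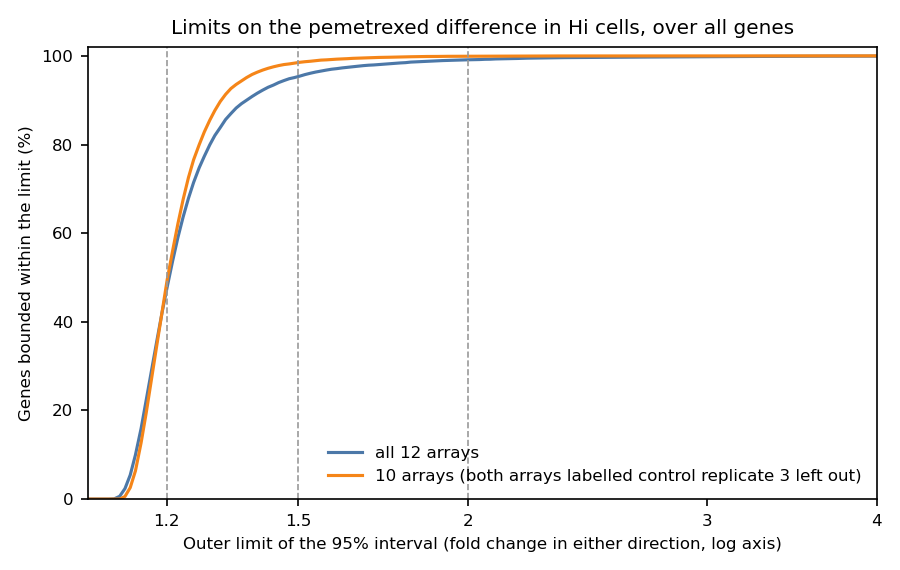
Share of the 18417 genes (vertical axis, %) whose whole 95% interval for Hi pemetrexed against Hi control lies within a given fold change of no difference (horizontal axis, log scale), for all 12 arrays and for the 10-array fit; dashed lines mark 1.2-fold, 1.5-fold and 2-fold. At 1.5-fold the curves stand at 95.3% and 98.5%.

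The RNA levels of the enzymes that pemetrexed inhibits differed by less than the spread between replicates. TYMS, the gene of thymidylate synthase, was at 11.19, 11.51 and 11.57 in Hi control and at 11.25, 11.44 and 11.66 in Hi pemetrexed. Its groups overlapped, and the difference was 0.03 (95% interval -0.26 to 0.32), or 0.10 (-0.22 to 0.42) in the 10-array fit. GART, which carries the purine-synthesis formyltransferase that antifolates inhibit, was at 10.11, 9.75 and 9.96 in control and at 10.01, 9.74 and 10.03 in treated arrays, a difference of -0.01 (-0.25 to 0.22). ATIC, the enzyme of the last steps of purine synthesis, differed by -0.13 (-0.36 to 0.11), and by -0.04 (-0.24 to 0.16) with 10 arrays. These 3 targets were all bounded in both fits.

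Genes that carry, store and release the drug were as closely held. SLC19A1, the reduced folate carrier, was at 10.15, 10.13 and 10.32 in control and at 10.31, 10.06 and 10.26 in treated arrays. Its difference was 0.01 (-0.16 to 0.18). FPGS, folylpolyglutamate synthase, was at 9.81, 9.81 and 9.69 and then at 10.02, 9.68 and 9.92, a difference of 0.10 (-0.10 to 0.30). GGH, the hydrolase that removes the glutamate chain, was at 9.09, 9.35 and 9.43 in control and at 9.08, 9.32 and 9.59 in treated arrays, with overlapping groups and a difference of 0.04 (-0.25 to 0.33). FOLR1, folate receptor alpha, was low, between 6.03 and 6.24 in the Hi arrays, and differed by 0.07 (-0.09 to 0.23). All 15 measured genes of folate transport, polyglutamation and drug efflux were bounded in both fits, against 95.3% and 98.5% of all genes. Their differences lay between -0.11 (ABCC4, a drug efflux pump) and 0.10 (FPGS).

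One-carbon and nucleotide metabolism showed the same narrow range. Of 27 genes of the one-carbon and methionine cycle, 26 were bounded in both fits, with a median of -0.04 against 0.00 over all genes. The exception was ALDH1L2, a mitochondrial formyltetrahydrofolate dehydrogenase, at -0.17 (-0.73 to 0.38) in the 10-array fit. MTHFD2L, a mitochondrial methylenetetrahydrofolate dehydrogenase, had the largest difference of the list, 0.17 (0.01 to 0.33), and was not called (limma adjusted p = 1.00). SHMT2, the mitochondrial serine hydroxymethyltransferase, differed by 0.00 (-0.18 to 0.19). MTHFD2, which works beside it, was at 10.47, 10.74 and 11.05 in control and at 10.41, 10.56 and 10.85 in treated arrays. The highest of these was the array labelled Hi control replicate 3, and the difference went from -0.15 (-0.49 to 0.19) to 0.00 (-0.26 to 0.26) in the 10-array fit. In purine synthesis and salvage 16 of 17 genes were bounded with all arrays and 17 with 10, and in pyrimidine and deoxynucleotide metabolism 23 and then 24 of 24. ADA, adenosine deaminase, was the purine gene outside, at -0.32 with all arrays and -0.01 with 10.

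No p53 target of folate-replete cells was called. All 31 measured p53 targets were bounded within 1.5-fold in both fits, against 95.3% and 98.5% of all genes. Their median was -0.03 with all arrays and 0.03 with 10. CDKN1A, the p53-induced inhibitor of cell-cycle kinases, was at 11.19, 11.28 and 11.47 in Hi control and at 11.28, 11.24 and 11.25 in Hi pemetrexed. The treated arrays lay inside the control range, and the difference was -0.05 (-0.25 to 0.14). MDM2, the p53 ubiquitin ligase that p53 itself induces, was at 13.03, 13.07 and 13.44 and then at 12.96, 13.16 and 13.23, a difference of -0.07 (-0.30 to 0.17). In Lo cells 20 of the 31 targets rose with pemetrexed and 0 fell (19 and 0 in the 10-array fit), among 1978 genes called there (10.7%), 1031 (5.6%) higher and 947 (5.14%) lower in treated cells. In the 10-array fit 2018 genes (11%) were called there, 960 (5.21%) higher and 1058 (5.74%) lower, and 3385 when replicate numbers were blocked. The count in Lo cells was 1210 when Lo control replicate 3 was left out, and 1282 and 1170 when Lo pemetrexed replicates 1 and 3 were. CDKN1A rose there by 0.71, and its response differed between the cultures by 0.76 (limma interaction, adjusted p = 0.00582).

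Cell-cycle genes were bounded less tightly. PLK1, a kinase that drives mitosis, was at 11.75, 12.08 and 12.09 in Hi control and at 11.69, 12.02 and 12.09 in Hi pemetrexed, a difference of -0.04 (-0.30 to 0.22). MKI67, the proliferation marker Ki-67, was at 10.23, 10.65 and 10.46 and then at 9.93, 10.58 and 10.58, a difference of -0.09 (-0.43 to 0.26). MCM2, a subunit of the replicative helicase, differed by -0.04 (-0.33 to 0.25) and PCNA, the sliding clamp of DNA polymerase, by 0.03 (-0.19 to 0.26). In all 4 genes the treated and control arrays overlapped. Of 37 genes of G2 and mitosis, 33 were bounded with all arrays and 34 with 10, with medians of -0.08 and -0.01. The 3 outside in the 10-array fit were MAD2L1, a spindle checkpoint protein, at 0.38 (-0.39 to 1.14), and the kinetochore proteins CENPE at -0.18 (-0.62 to 0.27) and CENPF at -0.15 (-0.59 to 0.29). Of 40 genes of S phase, 36 and then 38 were bounded. CDC6, which licenses replication origins, had the widest interval there, 0.13 (-0.83 to 1.09) in the 10-array fit. In Lo cells 33 of the 37 mitotic genes fell with pemetrexed in both fits, and 24 of the 40 S-phase genes with all arrays and 25 with 10, against 5.14% and 5.74% of all genes. None of either list rose there.

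Replication-dependent histones had the highest median of the 35 gene lists. It was 0.17 with all arrays and 0.16 with 10, against 0.00 over all genes, and 33 of 40 genes lay above 0 with all arrays and 36 with 10, against 49.4% and 49.9% of all genes. None of the 40 was called by limma, 2 had an unadjusted p under 0.05 with all arrays and 1 with 10, and 28 and then 33 were bounded. H2BC3, a histone H2B gene, had the largest difference of the list. Its arrays read 7.37, 7.54 and 7.32 in control and 8.01, 7.53 and 7.96 in treated cells. Treated replicate 2 lay inside the control range, and the difference was 0.42 (-0.04 to 0.89), or 0.38 (-0.10 to 0.85) with 10 arrays. H2BC14, another H2B gene, was at 12.41, 12.53 and 12.16 and then at 12.38, 12.35 and 12.32, a difference of -0.02 (-0.30 to 0.27). Histone probe sets can share sequence between genes, so values of individual histone genes are uncertain.

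Of the other lists of DNA damage and death, all 19 genes of uracil removal and base excision repair were bounded in both fits, as were 20 of 20 and then 19 of 20 genes of homologous recombination, the Fanconi pathway and the checkpoint. The exception was FANCM, a helicase of the Fanconi pathway, at 0.15 (-0.29 to 0.59). Of 19 genes of the BCL2 family and apoptosis, 17 were bounded with all arrays and 19 with 10. BCL2L11, the pro-apoptotic BIM, was at 9.50, 9.61 and 8.30 in control and at 9.35, 9.71 and 9.52 in treated arrays. Only the array labelled Hi control replicate 3 was low, and the difference was 0.39 (-0.37 to 1.14) with all arrays and -0.03 (-0.29 to 0.23) with 10.

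**Figure D3:**
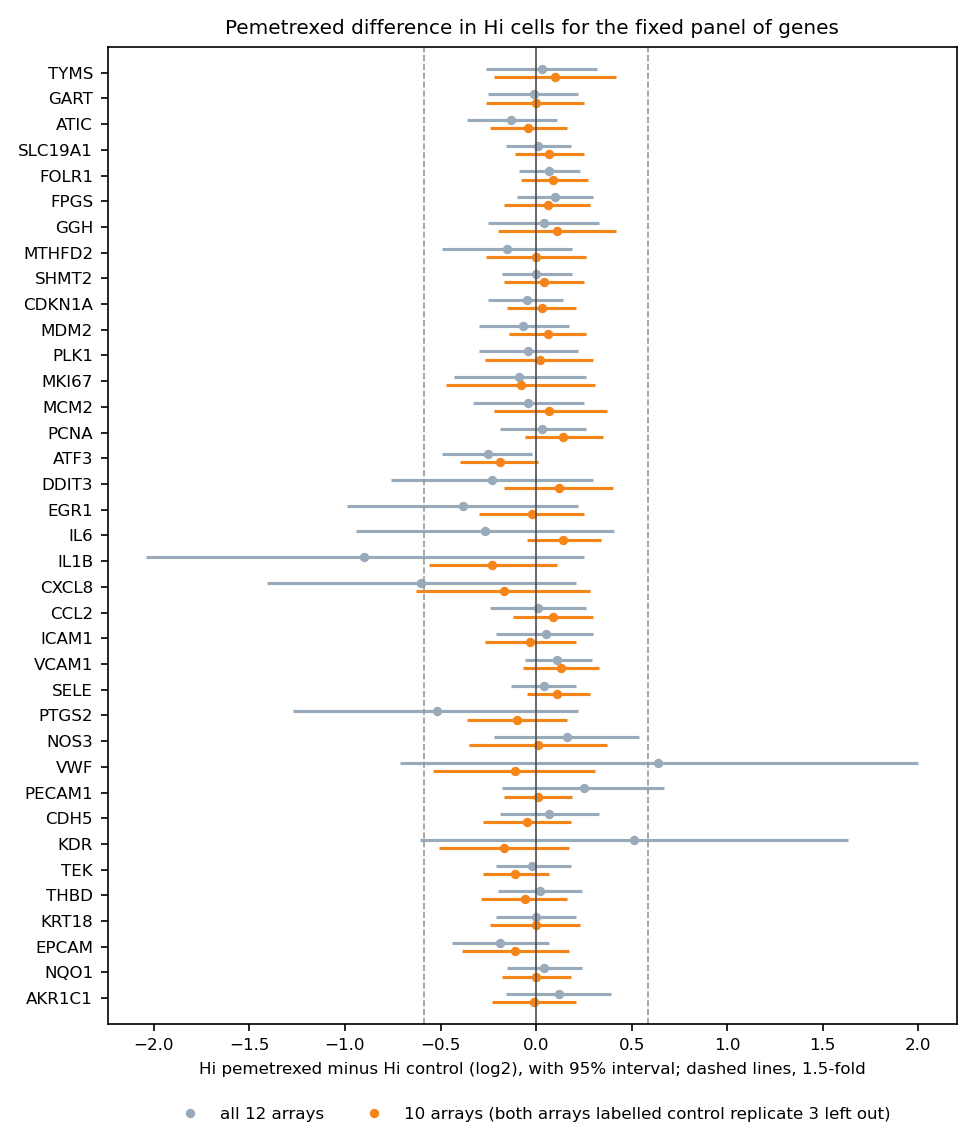
Difference between Hi pemetrexed and Hi control (log2, points) with its 95% interval (lines) for the 37 measured genes of a fixed panel, for all 12 arrays and for the 10-array fit; dashed lines mark 1.5-fold in either direction. The intervals of IL1B, VWF, KDR, CXCL8 and PTGS2 are the widest with all arrays, and with 10 arrays CXCL8 alone reaches past the 1.5-fold line.

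Stress-response genes were not called in either direction. ATF3, a transcription factor of the stress response, was at 7.34, 7.08 and 7.39 in Hi control and at 7.01, 7.11 and 6.93 in Hi pemetrexed. Its groups overlapped in treated replicate 2, and its interval lay just below 0 with all arrays, -0.25 (-0.49 to -0.02), at a limma unadjusted p of 0.0364 and an adjusted p of 1.00. With 10 arrays it reached 0, at -0.19 (-0.40 to 0.01). DDIT3, the stress factor CHOP, was at 8.46, 8.89 and 9.72 in control and at 8.69, 8.67 and 9.02 in treated arrays. The high control was again the array labelled replicate 3, and the difference went from -0.23 (-0.76 to 0.30) to 0.12 (-0.17 to 0.40) without it. EGR1, an immediate early transcription factor, was at 8.95, 9.19 and 10.15 and then at 9.11, 8.92 and 9.13. Its difference was -0.38 (-0.99 to 0.22) with all arrays and -0.02 (-0.30 to 0.25) with 10.

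By list, 23 of 26 genes that respond to amino acid shortage through ATF4, 20 of 21 of the unfolded protein and heat shock response and 18 of 23 immediate early genes were bounded with all arrays. With 10 arrays these counts were 25, 21 and 23. The ATF4-list gene outside was CEBPB, a transcription factor of stress and inflammation, at 0.26 (-0.10 to 0.61). In Lo cells 13 of the 26 ATF4-response genes and 8 of the 23 immediate early genes rose with all arrays, and 16 and 9 with 10, against 5.6% and 5.21% of all genes. None of either list fell there. Of 24 NRF2 and oxidative stress genes, 21 and then 23 were bounded. NQO1, a quinone reductase induced by NRF2, was at 12.77, 12.89 and 12.68 in control and at 12.73, 12.88 and 12.88 in treated arrays, a difference of 0.04 (-0.15 to 0.24). AKR1B10, an aldo-keto reductase, was outside in both fits, at -0.42 (-1.70 to 0.86) and 0.32 (-0.29 to 0.93).

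Several inflammatory genes had wide intervals with all arrays. IL1B, which encodes the cytokine interleukin-1 beta, was at 6.53, 6.12 and 8.34 in Hi control and at 6.22, 5.95 and 6.14 in Hi pemetrexed. The array labelled control replicate 3 stood alone at 8.34, and the difference of -0.90 (-2.04 to 0.25) became -0.23 (-0.56 to 0.11) in the 10-array fit. CXCL8, the neutrophil chemokine interleukin-8, was at 6.98, 7.45 and 8.50 and then at 6.62, 7.04 and 7.48. Its difference was -0.60 (-1.41 to 0.21), or -0.17 (-0.63 to 0.28) with 10 arrays, which left it as the only panel gene of 37 not bounded there. IL6, the cytokine interleukin-6, was at 6.32, 6.46 and 7.63 and then at 6.64, 6.43 and 6.54, a difference of -0.27 (-0.94 to 0.41) that became 0.14 (-0.05 to 0.34). PTGS2, the inducible cyclooxygenase, was at 8.22, 8.41 and 9.60 and then at 7.99, 8.22 and 8.44, a difference of -0.52 (-1.27 to 0.22) that became -0.10 (-0.36 to 0.16). In these 4 genes the array labelled control replicate 3 was the highest of the 6 Hi arrays.

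Other mediators of leukocyte recruitment lay within 1.5-fold in both fits. CCL2, the monocyte chemokine, was at 11.27, 11.11 and 11.44 in control and at 11.40, 11.30 and 11.15 in treated arrays, a difference of 0.01 (-0.24 to 0.26). ICAM1, a leukocyte adhesion molecule, was at 9.57, 9.89 and 9.50 and then at 9.69, 9.82 and 9.60, a difference of 0.05 (-0.21 to 0.30). VCAM1 and SELE, adhesion molecules of activated endothelium, differed by 0.11 (-0.06 to 0.29) and 0.04 (-0.13 to 0.21). Their levels were low in the Hi arrays, between 5.79 and 6.11 for VCAM1 and between 5.07 and 5.32 for SELE. Whether either gene was expressed cannot be told here. Of 34 cytokines and chemokines, 26 were bounded with all arrays and 33 with 10. For NF-kB subunits and feedback genes the counts were 21 and 22 of 22, and for interferon-stimulated genes 25 and 32 of 34. The interferon-stimulated genes outside in the 10-array fit were IFITM1, which restricts virus entry, at 0.32 (-0.01 to 0.65), and IFIT1, which binds viral RNA, at 0.11 (-0.41 to 0.63). All 18 leukocyte adhesion molecules, 20 genes of prostanoid and leukotriene metabolism, 16 complement genes and 22 genes of coagulation and fibrinolysis were bounded with 10 arrays.

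**Figure D4:**
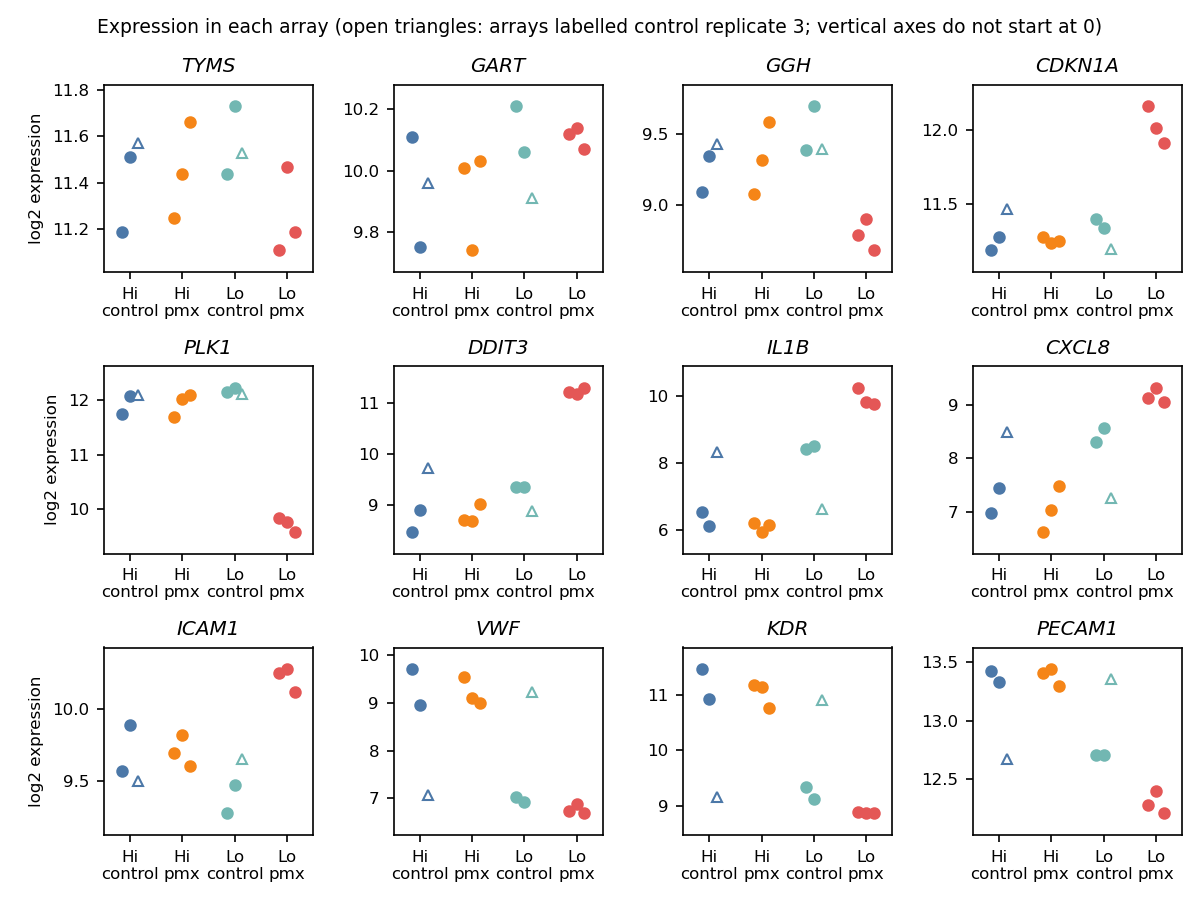
Log2 expression of 12 genes in each of the 12 arrays, by group, with the arrays labelled control replicate 3 as open triangles and no axis starting at 0. The Hi pemetrexed arrays lie with Hi controls 1 and 2 in every panel, while the open triangle of Hi control lies apart from them in IL1B, VWF, KDR and PECAM1, among others.

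Endothelial genes were bounded in the 10-array fit and much less so with all arrays. Of the 10 endothelial markers, 9 were bounded with 10 arrays, and the exception was CLEC14A, a surface lectin of endothelium, at 0.22 (-0.18 to 0.61). PECAM1, the junction protein CD31, was at 13.42, 13.33 and 12.67 in Hi control and at 13.41, 13.44 and 13.30 in Hi pemetrexed. Its difference was 0.25 (-0.18 to 0.67) with all arrays and 0.01 (-0.17 to 0.19) with 10. KDR, the VEGF receptor, was at 11.47, 10.93 and 9.16 and then at 11.19, 11.15 and 10.76, a difference of 0.51 (-0.61 to 1.63) that became -0.17 (-0.51 to 0.17). VWF, von Willebrand factor, was at 9.71, 8.96 and 7.06 and then at 9.55, 9.11 and 9.00, a difference of 0.64 (-0.71 to 2.00) that became -0.11 (-0.54 to 0.31). The low control value of each was the array labelled replicate 3. CDH5, VE-cadherin, differed by 0.07 (-0.19 to 0.33) and TEK, the angiopoietin receptor, by -0.02 (-0.21 to 0.18).

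All 10 endothelial markers were lower in the array labelled Hi control replicate 3 than in each of the other 5 Hi arrays, with a median difference of -0.84 from their mean. Over all genes it was below the other 5 in 4597 and above them in 5685. Only 4 of the 10 markers were bounded with all arrays. Among 32 genes of endothelial identity, 23 were bounded with all arrays and 31 with 10. NOS3, endothelial nitric oxide synthase, was at 11.23, 11.01 and 10.68 in control and at 11.42, 10.92 and 11.05 in treated arrays, a difference of 0.16 (-0.22 to 0.54), and 0.01 (-0.35 to 0.37) with 10. THBD, the anticoagulant receptor thrombomodulin, differed by 0.02 (-0.20 to 0.24).

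Short panels of markers of the other parent line and of other cell types were within 1.5-fold. The 8 markers of epithelium and lung carcinoma, the 7 of fibroblasts and smooth muscle and the 4 measured leukocyte markers were all bounded in both fits. In the fuller lists, 20 of 21 epithelial and lung carcinoma genes were bounded in both fits. The exception was CLDN1, at -0.54 (-1.47 to 0.39) with all arrays and -0.04 (-0.60 to 0.52) with 10. Of 15 fibroblast and smooth muscle genes, 13 were bounded with all arrays and 15 with 10, and POSTN was at -0.59 with all arrays. KRT18, an epithelial keratin, was at 11.72, 11.73 and 11.72 in control and at 11.81, 11.65 and 11.71 in treated arrays, a difference of 0.00 (-0.21 to 0.21). EPCAM, an epithelial adhesion molecule, was between 5.43 and 5.80 in control and between 5.30 and 5.60 in treated arrays. NKX2-1, a transcription factor of lung epithelium, was between 5.51 and 5.76 and then between 5.51 and 5.79. PTPRC, the leukocyte antigen CD45, was between 4.08 and 4.19 and then between 4.05 and 4.14.

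Over the 35 gene lists together, 813 distinct genes were measured and 0 were called by limma. Of these, 725 (89.2%) were bounded with all arrays and 790 (97.2%) with 10, against 95.3% and 98.5% of all genes. List medians ran from -0.08 to 0.17 with all arrays and from -0.03 to 0.16 with 10. Every measured member was bounded in 9 lists with all arrays and in 22 with 10. Of the housekeeping complexes, all 26 genes of oxidative phosphorylation and all 28 proteasome subunits were bounded in both fits. Of 36 cytosolic ribosomal proteins, 36 and then 35 were bounded. RPS24, a small-subunit ribosomal protein, was the exception, at 0.37 (0.02 to 0.73) with 10 arrays and 0.05 with all.

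**Figure D5:**
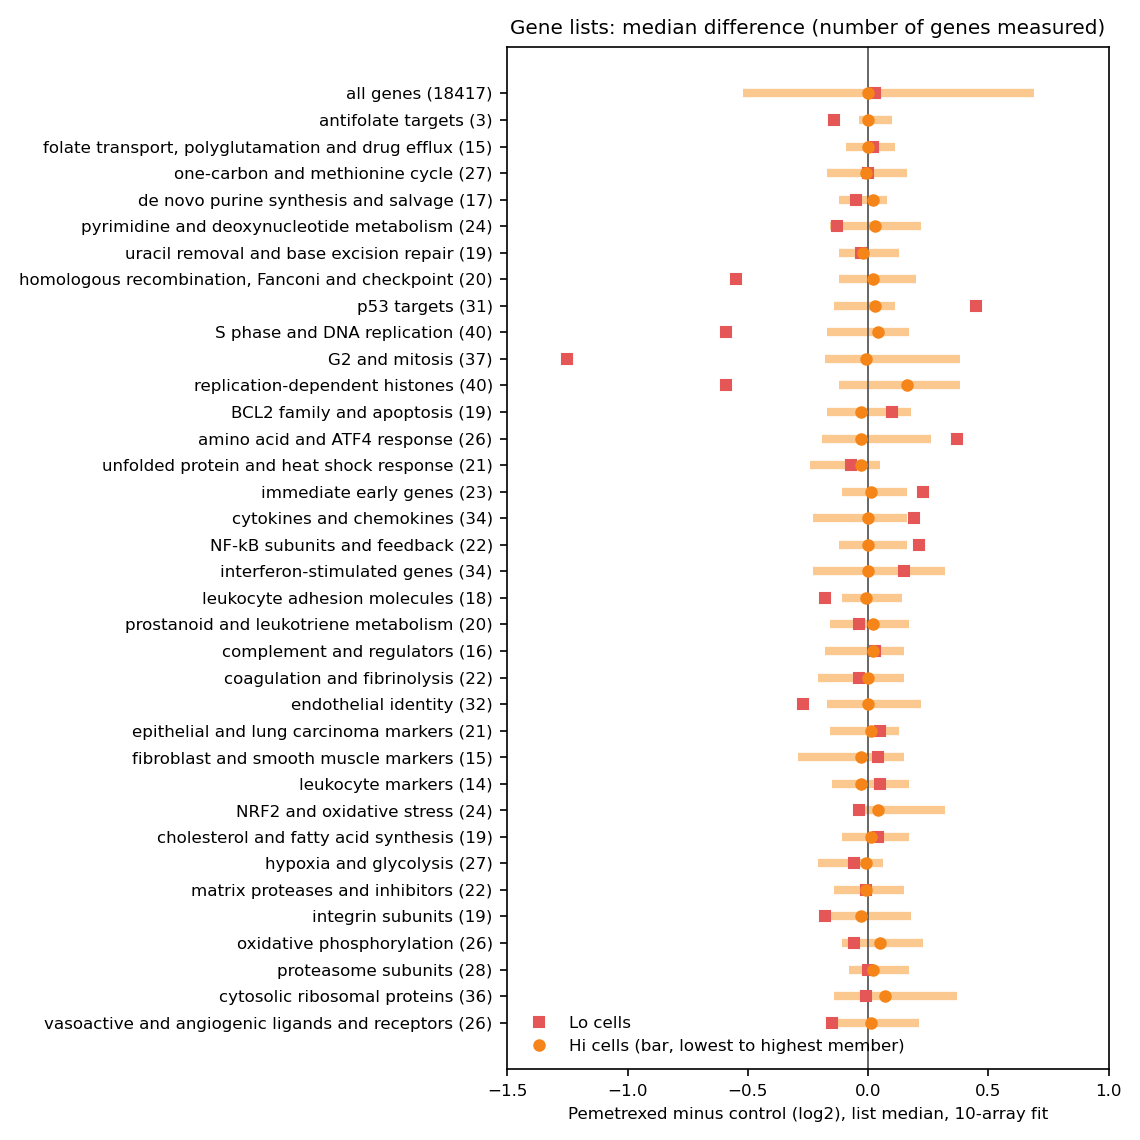
Median log2 difference between pemetrexed and control in the 10-array fit for 35 gene lists and for all genes, in Hi cells (circles, with a bar from the lowest to the highest member) and in Lo cells (squares). Hi medians lie between -0.03 and 0.16, while the Lo medians of S phase and histones lie at -0.59 and -0.59, that of G2 and mitosis lies lowest, and that of p53 targets lies at 0.45.

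The genes with the smallest p had small differences. With all arrays the smallest p for a lower value was that of DIPK1C, a protein kinase-like gene, at 6.10, 6.01 and 6.16 in control and at 5.77, 5.72 and 5.75 in treated arrays. Its groups did not overlap, and the difference was -0.34 (-0.50 to -0.19), at an unadjusted limma p of 0.000385 and an adjusted p of 1.00. LINC00917, a long non-coding RNA, had the smallest p for a higher value. It was at 5.39, 5.28 and 5.34 and then at 5.97, 5.55 and 6.10, a difference of 0.53 (0.28 to 0.79), at an unadjusted limma p of 0.000614 and an adjusted p of 1.00. CREB3L4, a membrane-bound transcription factor, followed at 7.11, 7.26 and 7.23 and then between 7.45 and 7.54, a difference of 0.30 (0.15 to 0.45). In all 3 genes every treated array lay on the same side of every control array, as it did in 5.44% of all genes, and 0 were called.

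The remaining genes with the smallest p were SAMD13, ZNF679, OR1N2 and CNTD1, higher by 0.28 to 0.32, and HOXD12, FLJ36000, OR4K5, DPY19L2P2 and CA5A, with differences from -0.55 to -0.21. OR1N2 and OR4K5 are olfactory receptor genes, HOXD12 is a homeobox gene and CA5A is a mitochondrial carbonic anhydrase. Without the array labelled Hi control replicate 3, the smallest p values for higher genes included OR6B3, TMEM215, PLPPR1 and SNORD53, a small nucleolar RNA. SNORD53 was at 9.41, 9.56 and 10.13 in control and at 10.04, 9.84 and 9.81 in treated arrays. Its difference was 0.20 (-0.13 to 0.52) with all arrays and 0.41 (0.22 to 0.61) with 10. Those for lower genes included OR4C12, ELMOD1 and ZNF730, at -0.42, -0.25 and -0.46 in the 10-array fit.

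In the 6 genes with the widest intervals, 1 array stood apart. AMTN, the enamel-associated protein amelotin, was at 6.36, 7.14 and 11.58 in Hi control and at 6.20, 6.36 and 7.68 in Hi pemetrexed. The difference was -1.62 (-4.30 to 1.07) with all arrays and -0.01 (-0.78 to 0.77) with 10. CALCRL, the receptor for adrenomedullin and calcitonin gene-related peptide, was at 11.60, 11.22 and 8.62 and then at 11.48, 11.36 and 11.47. Its difference was 0.95 (-0.61 to 2.52) with all arrays and 0.03 (-0.22 to 0.27) with 10. For CLCA2, SPP1, ATP6V0D2 and MMRN1 the differences of -1.36, -1.11, -1.24 and 0.81 became -0.21, -0.16, -0.34 and -0.03. SPP1 encodes osteopontin and MMRN1 the platelet and endothelial protein multimerin 1. That array was the one labelled Hi control replicate 3 in each of the 6 genes.

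Hi and Lo cells were also compared among the 6 treated arrays. This comparison does not isolate the replete state, since it holds the drug response of each culture as well as any difference between untreated cells. Of 18417 genes, 4107 (22.3%) were called between Hi and Lo pemetrexed, 2028 (11%) higher and 2079 (11.3%) lower in Hi cells. Of these, 228 and 274 differed at least 2-fold. In the 10-array fit 5106 (27.7%) were called, 2574 (14%) higher and 2532 (13.7%) lower, while the differences themselves involve no control array and are the same in both fits. The genes highest in treated Hi cells over Lo were CALCRL by 3.58, MMRN1 by 3.44, ST3GAL5, a ganglioside sialyltransferase, by 3.12, and H2BC14 by 2.87. RASGRP3, an activator of Ras-family proteins, ABCA8, a lipid transporter, LRRC70 and ITGA10, an integrin collagen receptor, followed by 2.82, 2.81, 2.72 and 2.47. The genes lowest in Hi cells were AMTN (-4.88), ATP6V0D2, a proton pump subunit (-4.64), CLCA2 (-4.30), IL1B (-3.83) and TNFAIP3, the A20 inhibitor of NF-kB (-3.55). IL1RL1, the interleukin-33 receptor, IL7R, the interleukin-7 receptor, and SERPINB7 followed at -3.51, -3.39 and -3.21.

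All 10 endothelial markers were called higher in treated Hi than in treated Lo cells, against 11% of all genes called in that direction. KDR was at 11.19, 11.15 and 10.76 in Hi pemetrexed and at 8.89, 8.86 and 8.86 in Lo pemetrexed, a difference of 2.16 (limma adjusted p = 0.00983). VWF, at 9.55, 9.11 and 9.00 against 6.72, 6.88 and 6.68, differed by 2.46 (limma adjusted p = 0.0136). In neither gene did the treated groups overlap. EMCN, the endothelial sialomucin endomucin, was at 6.98, 6.87 and 7.10 against 5.04, 4.97 and 5.09, a difference of 1.95. Of 32 genes of endothelial identity 18 were higher in Hi cells and 0 lower, with a median of 0.53 against -0.01 over all genes. Of the 8 epithelial markers, 0 were higher and 1 lower, EPCAM, by -0.38.

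Cell-cycle genes were higher and p53 and stress genes lower in treated Hi than in treated Lo cells. Over all genes 11% were called higher and 11.3% lower in Hi cells. Of 37 genes of G2 and mitosis 31 were higher and 1 lower, of 40 S-phase genes 24 and 1, and of 40 histones 31 and 3. PLK1, at 11.69, 12.02 and 12.09 against 9.83, 9.77 and 9.58, differed by 2.21 (limma adjusted p = 1.65e-06). Of 31 p53 targets 22 were lower in Hi cells and 0 higher, and of 26 ATF4-response genes 14 and 0. DDIT3, at 8.69, 8.67 and 9.02 against 11.23, 11.18 and 11.31, differed by -2.45 (limma adjusted p = 5.5e-05). Interferon-stimulated genes were lower in 19 of 34 and higher in 2, and cytokines and chemokines lower in 13 of 34 and higher in 4. The treated groups overlapped in none of the genes whose arrays are given here.

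Among untreated cells the comparison turned on the 2 arrays that lie apart from their labels. With all arrays 0 genes (0%) were called between Hi and Lo control by limma. Each of the 2 arrays lay with those of the other culture, so leaving them out favours a difference between the control groups, and the counts that follow are partly set by that choice. In the 10-array fit, with 2 arrays a group, 1320 (7.17%) were called, 644 (3.5%) higher and 676 (3.67%) lower in Hi cells, and 2422 when replicate numbers were blocked. Of the 10 endothelial markers 7 were higher in Hi control there and 0 lower, and of the 32 genes of endothelial identity 10 were higher and 3 lower. VWF, at 9.71 and 8.96 against 7.03 and 6.91, differed by 2.36, and KDR, at 11.47 and 10.93 against 9.34 and 9.12, by 1.97. Interferon-stimulated genes were lower in 10 of 34 and higher in 1. Genes of G2 and mitosis were lower in 9 of 37 and higher in 1, with a median of -0.36 against 0.01 over all genes. The p53 targets were lower in 2 of 31 and higher in 1, and the S-phase genes lower in 1 of 40 and higher in 0. Whether these list counts differ between treated and untreated cells was not tested.

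The response in Hi cells was also set against that in Lo cells gene by gene. Of the 1978 genes called for pemetrexed in Lo cells, 1807 (91.4%) were bounded within 1.5-fold in Hi cells. With 10 arrays the count was 1980 (98.1%) of 2018, and the shares over all genes were 95.3% and 98.5%. Genes that changed at least 2-fold in Lo cells numbered 229 with all arrays and 181 with 10. Of these genes, 137 (59.8%) were bounded within 1.5-fold in Hi cells with all arrays and 161 (89%) with 10. Both shares were below those over all genes. The median size of change of these genes in Lo cells, on which they were chosen, was 1.23 and 1.22, and the median size of the Hi difference was 0.141 and 0.0698.

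The interaction tested the difference between the responses directly. It was called in 886 genes (4.81%), of which 474 (2.57%) had the higher and 412 (2.24%) the lower response in Lo cells. In the 10-array fit 767 (4.16%) were called, 372 (2.02%) and 395 (2.14%) in these directions, and 1738 when replicate numbers were blocked. The count fell to 506 without Hi pemetrexed replicate 2, 539 without Hi pemetrexed replicate 3 and 572 without Lo control replicate 3. It was 568, 584 and 443 without Lo pemetrexed replicates 1, 2 and 3. For TYMS, GART, ATIC, SLC19A1, FPGS and MDM2 it was not called, and the response of TYMS in Lo cells was -0.31 (limma adjusted p = 0.186).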

How the data were processed

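Total RNA (RNeasy kit) was labelled with biotin for Affymetrix arrays, per the labels' protocols. The authors deposited log2 expression values of probe sets, computed by RMA in Partek 6.5, per the submitters' processing notes; further settings are not given in the sources used here. Array medians lay between 7.24 and 7.33.

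Of 33297 probe sets, 19460 had 1 gene symbol, 1754 several and 12083 none listed; names came from the platform annotation, and 19429 identifiers were found in RefSeq (GRCh38.p14). For 769 genes with several probe sets the brightest by mean over 12 arrays was used, giving 18417 genes. Symbols can be old, and some items are not reported here.

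A model of 4 group means was fitted to the 12 arrays with limma 3.58.1 in R 4.3.3 (lmFit, eBayes; 8 residual degrees of freedom), two-sided, and again to 10 arrays. The code was tested on simulated data. All p-values rest on the spread among biological replicates of 1 line. Same-numbered arrays deviated together in all 13 pairs of the 10 arrays (r from 0.115 to 0.543) and in 11 of 18 pairs of all arrays (over 0.1), so the block was used with 10 arrays. Deviations were taken from group means, and in a control group of 2 arrays they mirror each other, so the 13 pairs are not independent. Named genes were a panel of 38, the 6 smallest p a direction (also without Hi control replicate 3), the 6 widest intervals, the largest member of each list and the 8 largest a direction for treated Hi against Lo and for the interaction. CENPF and other list members outside 1.5-fold were named after their values were seen. Members and lists were chosen with earlier results of these data known. No set test was run. Alternatives were leaving out each array, Hi arrays alone, the block, no moderation, trend and robust moderation, array weights, quantile normalization, median centring, a minimum mean of 6 log2, and all probe sets.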

Additional observations from a re-analysis of the deposited data

Results flagged for a closer look

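The response to pemetrexed differed between Lo and Hi cells, by the limma interaction at an adjusted p under 0.05, in 25 of the genes named. A positive value is a higher log2 response in Lo than in Hi cells.

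Among genes of folate metabolism the difference was -0.74 for GGH and 0.89 for MTHFD2, whose value was 0.59 in the 10-array fit, at an adjusted p of 0.0815. Among p53, cell-cycle and histone genes it was 0.76 for CDKN1A, -2.40 for PLK1, -0.73 for MCM2, -1.88 for SPC25, -1.93 for CENPI, -2.22 for KIF15, -2.02 for PRC1, -2.22 for PRR11, -2.02 for H2BC3 and -2.88 for H2BC14. KIF15 and PRC1 act on the spindle, and CENPI and SPC25 are kinetochore proteins.

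For stress and immediate early genes the values were 1.35 for ATF3, 2.29 for DDIT3 and 2.42 for EGR1. For inflammatory genes and receptors they were 2.98 for IL1B, 2.90 for TNFAIP3, 2.83 for IL1RL1, -0.65 for CCL2 and 0.71 for ICAM1. The endothelial receptor TEK stood at -0.63. The other genes were ATP6V0D2 at 3.92, ABCA12, a lipid transporter of skin, at 2.52, SERPINB7 at 2.39 and ACTBL2, an actin-like gene, at 2.36. In IL1B, TNFAIP3, IL1RL1, ATP6V0D2, ABCA12 and SERPINB7 the array labelled Hi control replicate 3 lay apart from the other Hi arrays. In the 10-array fit the values of these 6 genes were 1.70, 1.66, 1.60, 2.24, 1.52 and 1.42, in that order, and the limma interaction was called in each. For the other 18 genes apart from MTHFD2 the 10-array value was within 1.5 times that with all arrays, and the interaction was called.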

How the results depend on the processing

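The count of 0 genes called for pemetrexed in Hi cells held under every alternative run. The other comparisons were followed through the alternatives by their counts of called genes. Whether the called genes kept their direction under every alternative was not tested. Leaving out an array in turn gave 16885 to 17907 bounded genes and intervals extending a median of 0.20 to 0.232 log2. Over all probe sets of the table, a setting chosen after seeing the data, 29936 (89.9%) were bounded and 30825 (92.6%) passed the test against 1.5-fold. Leaving out both arrays labelled control replicate 3 gave 1320 genes for folate among control cells, against 0, a choice that favours a difference there.

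With the replicate number as a block in these 10 arrays, the counts were 0 for pemetrexed in Hi cells, 3385 for pemetrexed in Lo cells, 1738 for the interaction, 6554 for folate among treated cells and 2422 among control cells. In all 12 arrays the block left the count for Hi cells at 0, with 312 genes at an unadjusted p under 0.05. Without variance moderation the interaction was called in 291 genes and pemetrexed in Lo cells in 1262. Leaving out each array in turn gave 443 to 956 genes for the interaction, 1170 to 2563 for pemetrexed in Lo cells and 2855 to 4607 for folate among treated cells. Precision is limited by 3 arrays a group, and probe sets near background, which cannot be told from silent genes here, add to the bounded count.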

Other observations

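Small non-coding RNAs were the most frequent class among the largest differences in Hi cells once the array labelled Hi control replicate 3 was left out, a class chosen after its values were seen. Of the 20 largest differences in the 10-array fit, 14 were of small nuclear or nucleolar RNAs, or of the RNA parts of RNase P and RNase MRP. RMRP, the RNA of RNase MRP, was at 11.65, 11.89 and 12.05 in Hi control and at 12.52, 12.20 and 12.28 in Hi pemetrexed. Every treated array was above every control array, and the difference was 0.57 (95% interval 0.18 to 0.96). RNU5B-1, a spliceosomal RNA, was at 6.18, 6.52 and 6.06 and then at 6.77, 6.79 and 7.19, a difference of 0.56 (0.20 to 0.93). SNORD45B, a small nucleolar RNA, was at 8.42, 8.42 and 8.68 and then at 9.36, 8.96 and 8.61, with overlapping groups and a difference of 0.55 (0.21 to 0.89). Other members separated less clearly. SNORD58A, with the largest difference, 0.69 (0.21 to 1.18), was at 6.74, 7.62 and 8.62 in Hi control, the last above every treated array. RNU5E-1, at 0.57 (0.07 to 1.06), was at 8.99, 9.99 and 9.89 and then at 9.95, 10.04 and 10.18. In both genes control replicate 1 was the lowest of the 6 Hi arrays by a wide margin.

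Of 175 small nucleolar RNAs, 128 (73.1%) lay above 0 in the 10-array fit, with a median of 0.09, and 24 (13.7%) had a limma unadjusted p under 0.05, against 1.5% of 16902 protein-coding genes. None passed the adjustment over all genes, and 117 (66.9%) were bounded within 1.5-fold. Of 20 small nuclear RNAs, 14 lay above 0 and 6 had an unadjusted p under 0.05. With all arrays the medians of these classes were 0.06 and 0.03. Hi control replicate 1 had the lowest median deviation of the 6 Hi arrays over the small nucleolar RNAs, -0.12, and its part in the difference was not tested. Many of these RNAs come in families of near-identical copies, so values of single members are uncertain.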
